A study of Cavia porcellus with 30 samples.

Results

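In guinea pig liver, 130 of 25824 annotated transcripts were low 9 h after a high dose of thioacetamide and, by their share of the library, near vehicle level at 33 h. They were chosen from measured values. The deposited TPM (a transcript's level corrected for its length and for library depth) was averaged over the 5 animals of a group, and 0.1 TPM was added to each mean. A transcript was taken when the ratio of high dose to vehicle was at most 0.6 at 9 h and between 0.8 and 1.25 at 33 h, and when the 10 vehicle animals averaged at least 5 TPM. Of the 8116 transcripts that reached 5 TPM in vehicle livers, the 130 are 1.60%. In all, 412 of the 8116 met the 9 h limit, of which 150 lay under the 33 h window and 132 over it. The values that chose the transcripts are given below as descriptions. The low dose animals were not used in the choice. Of the comparisons below, only low dose at 33 h against low dose at 9 h shares no animal with it. The other tests contain vehicle or high dose animals that the choice used.

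Thioacetamide is not itself the injurious agent: liver enzymes oxidise it to reactive products that bind to hepatocyte proteins and lipids, mostly in the cells around the central vein, where those enzymes are abundant. The level of an mRNA at any hour reflects its synthesis and its decay, so mRNAs with a short life can drop within hours when their synthesis slows and can refill as quickly. TPM and counts are shares of a library, and the share of one transcript also moves when other, abundant transcripts change.

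Liver RNA came from 30 Hartley guinea pigs, an outbred laboratory breed, in 6 groups of 5 animals with 1 library each. Vehicle animals received saline at 3 ml/kg, low dose animals 25 mg/kg and high dose animals 100 mg/kg thioacetamide, and each treatment was examined at 9 h and at 33 h. The labels used here do not state route, sex or age. Library totals ran from 21352800 to 33842300 estimated counts (6 significant digits), and the 130 transcripts had a mean of 3.20 to 6453 counts per library, with a median of 546 and at least 100 for 123 of them. The files do not pair the transcript identifiers with gene names, and the reference table used here matched none of them, so transcripts are described by level, length and response, 4 of them by identifier. For the same reason liver cell markers were not checked, and fewer cells of a type cannot be told apart from less RNA per cell.

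Whether these transcripts had returned at 33 h depended on how libraries were put on one scale. By TPM, the ratio of high dose to vehicle at 33 h had a median of 1.03 over the 130, with quartiles of 0.92 and 1.13, inside the window that the choice required. Over all 8116 transcripts of at least 5 TPM the same ratio had a median of 1.47, so a transcript at its vehicle share was low beside the typical transcript. TMM scaling, which sets libraries level by assuming that most transcripts do not change, gave factors of 0.822 to 0.894 in vehicle and 1.23 to 1.43 in high dose animals at 33 h. On that scale all 129 transcripts that passed the count filter had a negative fitted difference between high dose and vehicle at 33 h. The median was -0.58 on the log2 scale, and 108 were called lower and none higher, before adjustment too, against 22.5% and 28.2% of all 18239 tested transcripts (edgeR's quasi-likelihood test, Benjamini-Hochberg adjusted p under 0.05). Scaled by library totals alone, the median was 0.02, with 6 called higher and 7 lower, against 56.8% and 8.66% of all tested (edgeR's quasi-likelihood test). A change of scaling shifts all transcripts nearly together. Relative to the median of all tested transcripts the values therefore nearly met, at -0.67 with TMM and -0.68 with library totals. The rule set an upper limit on this ratio by TPM. Among the chosen transcripts the largest difference was 0.30 with library totals and -0.30 with TMM. The negative signs and the lack of higher calls with TMM thus follow largely from the rule and the scaling factors. These values only describe the chosen transcripts, and the shares of all tested transcripts are no test of them. The return was thus a return in share of the library. How much RNA each liver held was not measured in the files used, and these values do not show which scaling is nearer to the amount of each transcript in the tissue. Because the return depended on the scaling, the transcripts are described here by the rule and not as a transient response.

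**Figure D1:**
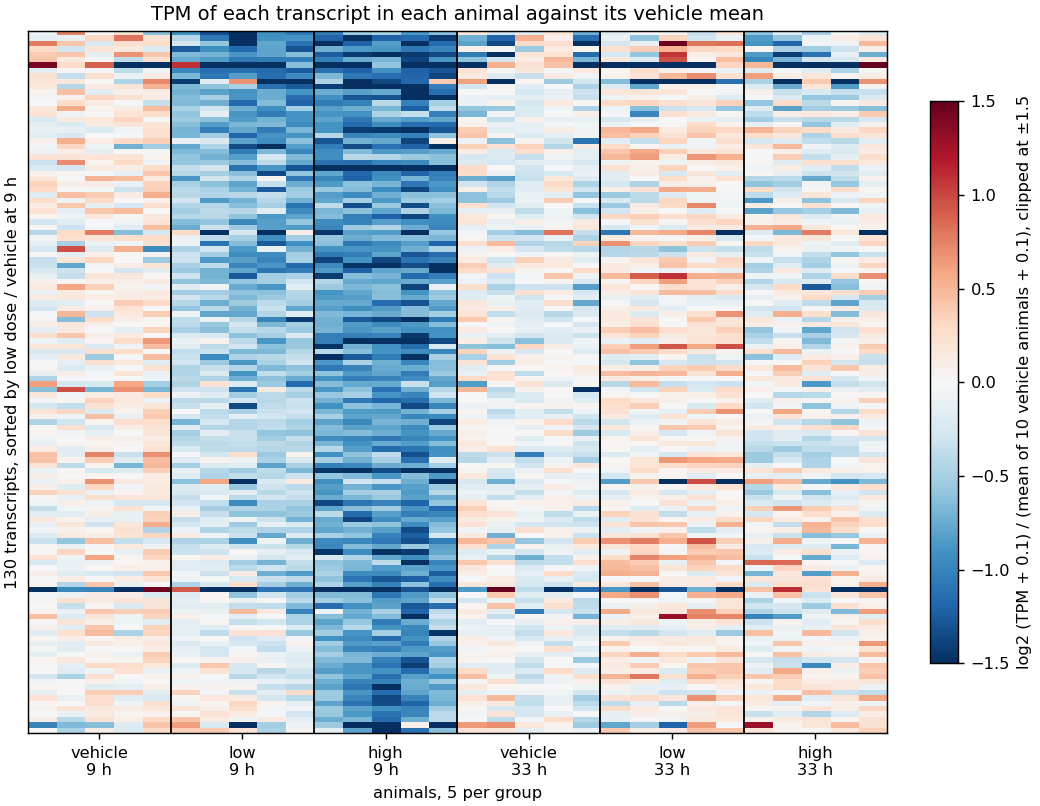
TPM of the 130 transcripts (rows, sorted by the ratio of low dose to vehicle at 9 h) in the 30 animals (columns, 5 per group), as log2 of TPM plus 0.1 over the transcript's mean in the 10 vehicle animals plus 0.1, clipped at ±1.5. The high dose 9 h block is low by the rule, the low dose 9 h block is low to a smaller extent, and the 33 h blocks lie near or above the vehicle mean.

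By TPM, the low dose livers of 9 h lay between the vehicle and high dose livers that the rule had set apart. Summed over the 130 transcripts, the level was 3131 ± 177 TPM in vehicle, 2212 ± 175 in low dose and 1651 ± 133 in high dose livers (SD, n = 5 per group). Vehicle animals ranged over 2950 to 3418 TPM, low dose animals over 2060 to 2448 and high dose animals over 1450 to 1804, with no overlap between neighbouring groups. For 120 of 130 transcripts the group means were in the order vehicle, low dose, high dose. Of the rest, 7 had a lower mean at the low than at the high dose, and 3 had a low dose mean at or above vehicle. The low dose reached a median of 60.5% of the difference in TPM between vehicle and high dose, with quartiles of 44.8% and 76.7%. The rule put every high dose mean of 9 h below vehicle. It also favours transcripts high in these vehicle animals and low in these high dose animals, so the order only describes the chosen transcripts.

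At 33 h the sums were 2753 ± 188 TPM in vehicle, 3274 ± 97.7 in low dose and 2837 ± 192 in high dose livers (SD, n = 5 per group). The 5 low dose animals, at 3148 to 3357, lay above all vehicle animals (2504 to 2992) and all high dose animals (2604 to 3085). The low dose mean at 33 h was the highest of the 3 groups of that time for 86 transcripts and the highest of all 6 groups for 62. The rule held the high dose near vehicle at 33 h, which favours a highest low dose. The same counts were not made over all transcripts. The median ratio of low dose to vehicle at 33 h was 1.13, below the 1.29 of all transcripts of at least 5 TPM. On TMM-scaled CPM (counts divided by the scaled library size, not corrected for length) the sum was not highest at the low dose. The sums there were 4459 ± 321 in vehicle, 4094 ± 521 in low dose and 2931 ± 217 in high dose livers (SD, n = 5 per group). Low dose animal 3 stood apart from its group at 4979 CPM, against 3594 to 4007 in the other 4, which gave the group its wide spread.

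**Figure D2:**
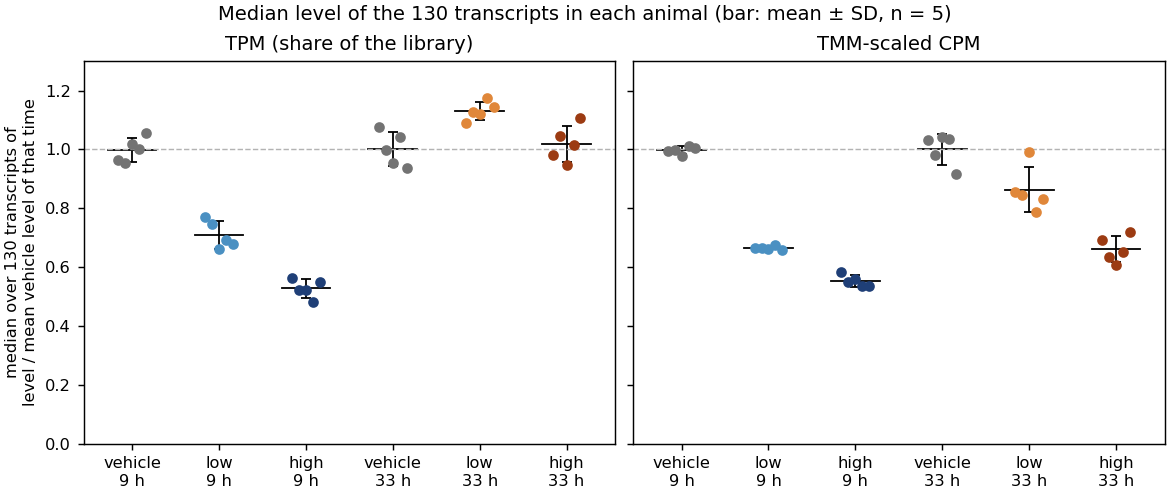
Each point is 1 animal; the y axis is the median over the 130 transcripts of that animal's level divided by the mean vehicle level of the same time, with TPM on the left and TMM-scaled CPM on the right, and bars give the mean ± SD (n = 5). At 33 h the low dose animals sit at 1.09 to 1.17 and the high dose animals at 0.95 to 1.11 by TPM, but at 0.79 to 0.99 and 0.61 to 0.72 on the TMM scale.

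The scaling also changed how alike the animals looked. At the low dose, 9 h, the median transcript stood at 0.71 ± 0.05 of its vehicle mean by TPM, with animals from 0.66 to 0.77 (SD, n = 5). On the TMM scale it stood at 0.665 ± 0.007, with animals from 0.658 to 0.676. Animals 1 and 2, the highest by TPM, also had the highest median over all transcripts of at least 5 TPM (1.08 and 1.05, against 0.97 in each of the other 3). For 117 to 126 of the 130 transcripts the TPM in a low dose animal at 9 h was below the vehicle mean. The choice used that vehicle mean and favours transcripts high in those animals, and the share over all transcripts was not counted.

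The comparison that shares no animal with the choice was low dose at 33 h against low dose at 9 h. Most of the transcripts were higher at the later time, by a modest amount. By TPM, 123 of 130 had a higher mean at 33 h, with a median ratio of 1.44 and quartiles of 1.25 and 1.70, beside a median of 1.21 over all transcripts of at least 5 TPM. Of the 129 tested, 51 (39.5%) rose and 2 fell, against 13.6% and 12.7% of all 18239 tested transcripts (edgeR's quasi-likelihood test, adjusted p under 0.05, TMM). The median difference was 0.31 on the log2 scale, with quartiles of 0.09 and 0.55 and a median SE of 0.14, while the median over all tested transcripts was 0.00. Of the 51 rises, 26 were at least 1.5-fold and 5 at least 2-fold, and the smallest was 0.22 on the log2 scale. Without animal 3 of 33 h, the low dose animal that stood apart on the TMM scale, 38 rose, 2 fell and the median was 0.23. Of all tested transcripts 4362 were then called in either direction, against 4792 with all animals.

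With library totals, 69 rose and none fell, against 20.6% and 7.75% of all tested (edgeR's quasi-likelihood test; 1 was lower at an unadjusted p under 0.05). The same 51 that rose with TMM were among the 69. The median was then 0.44, beside 0.14 over all tested transcripts, so the distance from the typical transcript was 0.31 with TMM and 0.29 with library totals. Every low dose animal at 33 h was above every low dose animal at 9 h for 66 of 130 transcripts by TPM, against 17.3% of all tested, and for 39 on TMM-scaled CPM, against 9.22%. This comparison holds dose constant and not time. Between the vehicle groups, both of which the rule used, the median difference of the same transcripts was -0.08 with TMM, and 1 was called lower and none higher, against 0.433% and 0.148% of all tested (edgeR's quasi-likelihood test; 5 were higher and 20 lower at an unadjusted p under 0.05).

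**Figure D3:**
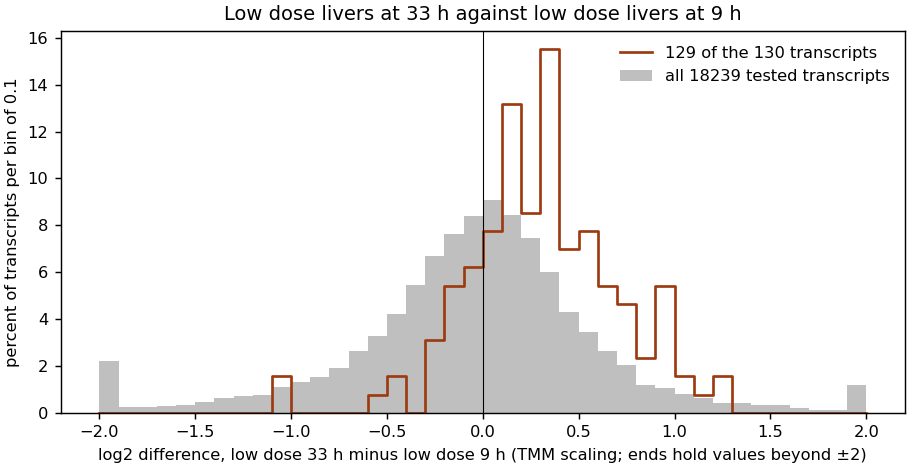
Distribution of the fitted log2 difference between low dose livers at 33 h and at 9 h (x axis, TMM scaling) for 129 of the 130 transcripts (line) and all 18239 tested transcripts (grey bars), as percent of each set per bin of 0.1 (y axis). The line is shifted to the right, with a median of 0.31 against 0.00.

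Against their own vehicle groups, the low dose livers were lower at 9 h and divided by scaling at 33 h. These comparisons use vehicle animals that also entered the choice, which favours transcripts that were high in the vehicle animals of 9 h. At 9 h, 98 of 129 were called lower, against 11.2% of all tested, and none higher, against 13.5%, with a median of -0.59 and quartiles of -0.77 and -0.42 (edgeR's quasi-likelihood test, TMM). No transcript was higher at an unadjusted p under 0.05 either, nor with DESeq2 or limma voom. With library totals 73 were called lower, against 5.42%, with a median of -0.45. All 5 vehicle animals were above all 5 low dose animals for 65 of 130 transcripts by TPM and for 77 on TMM-scaled CPM, against 4.87% and 8.56% of all tested.

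At 33 h, 29 of 129 were called lower and 1 higher at the low dose with TMM, against 11.4% and 14.3% of all tested, with a median of -0.20 (edgeR's quasi-likelihood test). With library totals the direction turned: 18 were called higher and 1 lower, against 36.9% and 3.86%, with a median of 0.11. Relative to the median of all tested transcripts the values were -0.23 and -0.25. The transcript called higher with TMM, 6987 bases long and picked out after its values were seen, measured 18.9, 25.9, 23.9, 22.8 and 21.4 TPM in the low dose animals. Its vehicle animals measured 9.30 to 16.4 TPM, below all of them, and its log2 difference was 0.45 ± 0.15 (SE, adjusted p = 0.0242). That call was lost without vehicle animal 2 or low dose animal 2 of 33 h.

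**Figure D4:**
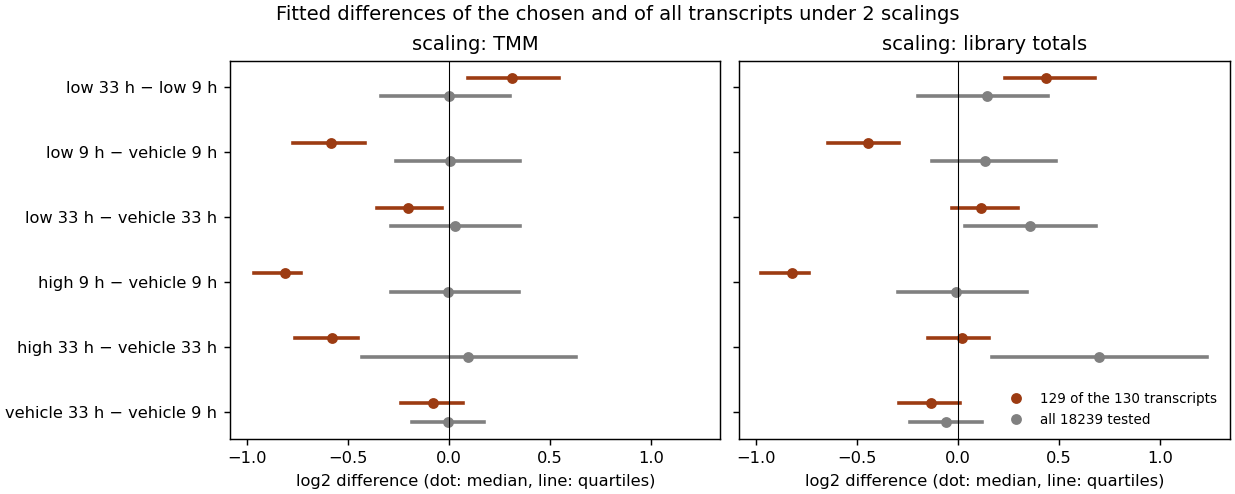
Median (dot) and quartiles (line) of the fitted log2 difference for 129 of the 130 transcripts (brown) and all 18239 tested transcripts (grey) in 6 comparisons (rows), with TMM scaling on the left and library totals on the right. Against vehicle at 33 h the brown dots move from -0.20 to 0.11 at the low dose and from -0.58 to 0.02 at the high dose, and the grey dots move with them.

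The 9 h values of the high dose, which the rule used, were close to its limit for most transcripts. The ratio of high dose to vehicle ran from 0.168 to 0.60 with a median of 0.543, and 92 of the 130 were at 0.5 or above, 27 between 0.4 and 0.5 and 11 under 0.4. All high dose animals were below all vehicle animals for 114 transcripts by TPM, and 123 of 129 were called lower with TMM. Over all tested transcripts these shares were 11.0% and 12.8%. The choice required a low ratio in these same animals, so it largely set both counts, and they only describe the chosen transcripts. Between the doses at 9 h, 30 were called lower at the high dose and none higher, against 4.22% and 2.86% of all tested, a contrast that also contains animals used in the choice (edgeR's quasi-likelihood test, TMM; 2 were higher at an unadjusted p under 0.05). By library totals 55 were lower and none higher, against 9.53% and 1.40%, with a median of -0.41 in place of -0.26 (edgeR's quasi-likelihood test; 1 was higher at an unadjusted p under 0.05). At 33 h, 74 were called lower at the high dose and none higher, against 16.2% and 16.9%, with a median of -0.40. By library totals it was 20 lower and 3 higher, against 7.41% and 33.9%, with a median of -0.11.

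Low dose ratios were not limited by the rule, though they are taken against vehicle animals that it used. The rule cut the range of the high dose ratios, so the spread at the low dose cannot be compared with theirs. At 9 h the ratio of low dose to vehicle had quartiles of 0.62 and 0.80 around a median of 0.717, beside a median of 1.01 for all transcripts of at least 5 TPM. It was under 0.6 for 29 transcripts, 0.6 to 0.8 for 68, 0.8 to 1 for 30 and 1 or more for 3. At 33 h the median ratio by TPM was 1.13, beside 1.29 for all transcripts of at least 5 TPM. It was at least 1.25 for 36 transcripts, between 0.8 and 1.25 for 90 and under 0.8 for 4. Those 4 were 156 to 1223 bases long, with a median of 459, and none of the 3 that could be tested was called between the low dose times.

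The difference between the low dose times was also set out by the depth of the high dose ratio, by abundance and by length. The 10 tested transcripts with a ratio under 0.4 had a median log2 difference of 0.48 between low dose livers at 33 h and 9 h, and 3 of them rose. The 27 between 0.4 and 0.5 had a median of 0.39, with 15 rises and 1 fall. The 92 at 0.5 or above had 0.28, with 33 rises and 1 fall (TMM). Over all tested transcripts 13.6% rose and 12.7% fell. These classes were formed after seeing the data and the differences between them were not tested. By abundance the medians were closer, at 0.31 for 60 transcripts of 5 to 10 TPM, 0.31 for 56 of 10 to 50 TPM and 0.38 for 13 of 50 TPM and over, in which 20, 24 and 7 rose. By length they were 0.31 under 1000 bases, 0.31 from 1000 to 3000 and 0.30 at 3000 bases and over, with 9 of 25, 25 of 60 and 17 of 44 rising.

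As a set the transcripts were of moderate abundance. Their vehicle means ran from 5.0 to 172 TPM with a median of 10.3, beside 15.7 for all transcripts of at least 5 TPM. Lengths ran from 156 to 11116 bases with a median of 2316, beside 2069. Within groups the median coefficient of variation was 15.1% in vehicle livers at 9 h and 15.2% at the low dose, 9 h, beside 11.8% and 11.9% for all transcripts of at least 5 TPM. At the low dose, 33 h, it was 11.5%, beside 15.5%.

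ENSCPOT00000013108.3, a transcript of 1578 bases, had the largest gain at the low dose between the times among those with no overlap of animals by TPM. It measured 43.6, 34.7, 18.0, 30.6 and 24.3 TPM in the low dose animals at 9 h. At 33 h the low dose animals measured 44.1, 48.7, 145, 91.2 and 92.7 TPM. The groups were separate by less than 1 TPM, between animals at 43.6 and 44.1, and animal 3 of 33 h stood highest. The log2 difference was 1.29 ± 0.38 (SE, edgeR adjusted p = 0.0133), and without animal 3 of 33 h it was 0.90 and the call was lost (adjusted p = 0.0789, in a range of 0.00349 to 0.0789 over its alternatives). Vehicle livers were themselves variable, at 44.3 to 89.4 TPM at 9 h and 18.3 to 64.2 TPM at 33 h. High dose livers measured 14.0 to 29.6 TPM at 9 h and 22.9 to 73.2 TPM at 33 h, the later range lying across the vehicle range.

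ENSCPOT00000011603.3, of 693 bases, gave the clearest separation of the named transcripts. It measured 9.88, 12.4, 10.5, 13.6 and 9.55 TPM in the low dose animals at 9 h and 27.9, 30.5, 34.0, 29.3 and 28.9 TPM in those at 33 h. The log2 difference was 1.22 ± 0.16 (SE, edgeR adjusted p = 3.62e-06), and its adjusted p was at most 0.000429 in every alternative tried. Vehicle animals of 9 h measured 19.3 to 28.8 TPM, all above the low dose animals of 9 h. Vehicle animals of 33 h measured 16.0 to 25.7 TPM, all below the low dose animals of 33 h. Against vehicle the low dose difference at 9 h was -1.22 ± 0.16 (SE, edgeR adjusted p = 2.84e-06). At 33 h it was 0.03 ± 0.16 with TMM and 0.34 ± 0.14 with library totals, neither of which passed the test (SE, edgeR adjusted p = 0.926 and 0.0546). The high dose animals of 9 h, at 11.1 to 14.3 TPM, overlapped the low dose animals of that time, so the doses were not separated for this transcript (edgeR adjusted p = 0.203).

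ENSCPOT00000025972.2, of 333 bases, had the highest mean TPM of the 130 over the 10 vehicle animals, though not in each group: at the low dose, 33 h, its mean was 134 TPM and the highest of the 130 was 205 TPM. It measured 194, 252, 178, 187 and 239 TPM in vehicle animals at 9 h, and 122, 140, 102, 90.9 and 120 TPM at the low dose. All vehicle animals lay above all low dose animals, a log2 difference of -0.99 ± 0.16 (SE, edgeR adjusted p = 3.90e-05). High dose animals at 9 h lay at 73.5 to 132 TPM, across the low dose range. At 33 h vehicle animals measured 114 to 164 TPM, low dose animals 111 to 163 and high dose animals 98.6 to 150, all 3 groups overlapping. With TMM the log2 difference from vehicle at 33 h was -0.39 ± 0.16 at the low dose (SE, edgeR adjusted p = 0.0669). At the high dose, a contrast that the rule used, it was -0.81 ± 0.16 (SE, edgeR adjusted p = 0.000113). With library totals these differences were -0.07 and -0.20, and neither passed the test. Between the low dose times the difference was 0.06 ± 0.16 (SE, edgeR adjusted p = 0.829), so no gain was detected at the low dose, and all 33 h group means were below the vehicle mean of 9 h.

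ENSCPOT00000007612.3, of 156 bases, had the lowest ratio at 9 h, a value that rests on few counts. It averaged 4.60 counts over the vehicle libraries and was the transcript of the 130 that did not pass the count filter. Its vehicle animals at 9 h measured 16.1, 7.24, 11.1, 0 and 0 TPM, and its high dose animals 0, 0, 3.92, 0 and 1.44 TPM. At 33 h it measured 0 to 8.61 TPM in vehicle and 0 to 17.7 TPM in high dose animals. Each of these groups had at least 1 animal at 0, and the groups overlapped at both times. In all, 4 of the 130 transcripts had no count in at least 1 library.

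**Figure D5:**
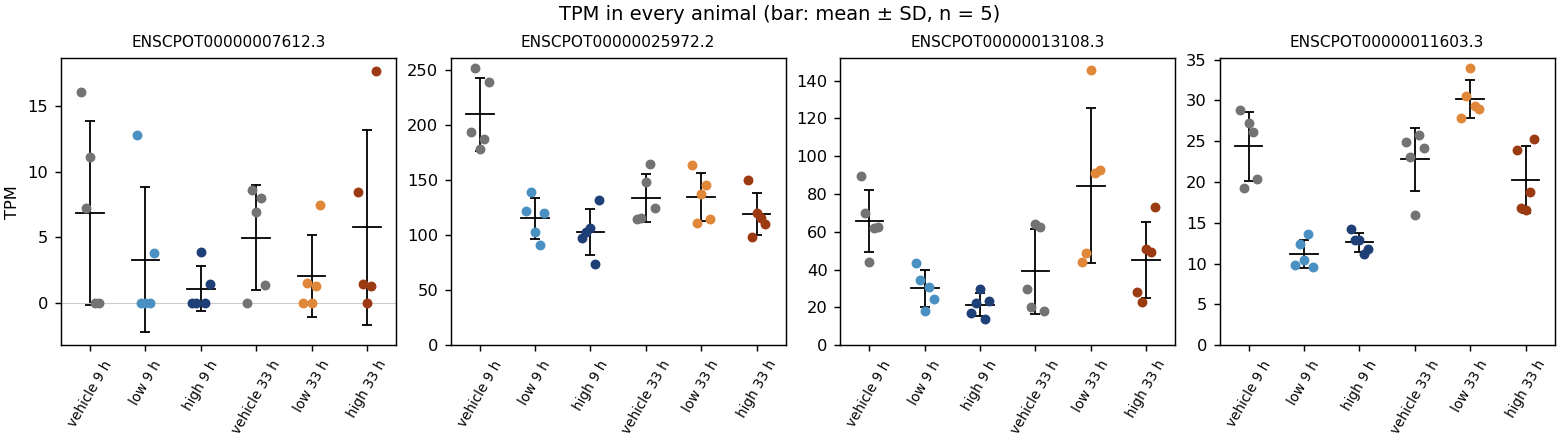
TPM (y axis) in every animal of the 6 groups for the 4 transcripts named by identifier; points are animals and bars the mean ± SD (n = 5), which can reach below 0 where animals are at 0. ENSCPOT00000011603.3 shows no overlap between low dose animals at 9 h (9.55 to 13.6 TPM) and at 33 h (27.9 to 34.0 TPM), while ENSCPOT00000007612.3 overlaps in all groups.

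The 2 transcripts called lower at the low dose, 33 h, than at 9 h were picked out after their values were seen, and both changed little by TPM. One, of 2585 bases, measured 8.15 to 11.1 TPM at 9 h and 6.73 to 9.46 TPM at 33 h, a log2 difference of -0.47 ± 0.11 with TMM (SE, edgeR adjusted p = 0.00277). The other, of 1329 bases, measured 6.66 to 10.7 and 6.78 to 8.24 TPM, a difference of -0.44 ± 0.15 (SE, edgeR adjusted p = 0.0342). Animals of the different times overlapped for both, and neither passed with library totals (edgeR adjusted p = 0.0524 and 0.157). At 9 h both stood at 0.96 of vehicle by TPM at the low dose, against 0.46 and 0.54 at the high dose.

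The limits of the rule cut through a continuum. The 5 transcripts just inside the 9 h limit had ratios of 0.5977 to 0.5999 and the 5 just outside 0.6001 to 0.6037. The 5 nearest the lower 33 h limit had ratios of 0.806 to 0.823 inside and 0.793 to 0.797 outside, and at the upper limit 1.24 to 1.25 inside and 1.26 to 1.28 outside. In vehicle level they lay at 5.0 to 5.42 TPM inside and 4.67 to 4.98 TPM outside. Leaving out any single vehicle or high dose animal gave 113 to 138 transcripts, and 56 of the 130 were taken whichever animal was left out. Of these 56, 27 rose and 2 fell between the low dose times, against 13.6% and 12.7% of all tested (TMM). At the low dose, 9 h, 47 were called lower than vehicle, against 11.2%, and none higher, against 13.5%. At the low dose, 33 h, 16 were called lower, against 11.4%, and none higher, against 14.3%. With TMM-scaled CPM in place of TPM the rule took 73 transcripts, of which 8 were among the 130, 6.15% of the 130 and 11.0% of the 73.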

How the data were processed

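Libraries were poly-A enriched, stranded and paired-end, per the labels' protocols. The tool named in the submitters' processing notes is kallisto 0.42.4; its transcript set is not given here. Per the file headers, the deposited values are estimated counts (not normalized) and TPM (scaled by effective length and library) beside each transcript's length. Reads shared between similar transcripts are divided by the estimate. The reference table (37416 genes) matched 0 of 25824 identifiers, so planned gene lists and markers were not used and no sequence is shown.

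The 130 transcripts and the lists were chosen with earlier results of these data known. Estimated counts were rounded and fitted with edgeR 4.0.16 (R 4.3.3; filterByExpr, minimum count 10, minimum total 15; TMM; robust quasi-likelihood; 1 coefficient per group, 24 residual degrees of freedom), with Benjamini-Hochberg adjustment over 18239 transcripts. The SE is the log2 difference over the square root of F. Alternatives used DESeq2 1.42.0, limma 3.58.1 (voom), other scalings, filters and omitted animals. On simulated counts for low dose 33 h against 9 h (16279 transcripts) the model recovered 20.0% of 1.5-fold, 74.3% of 2-fold and 91.4% of 4-fold changes, with 9 of 137 calls false. The simulation changed 60, 70 and 70 transcripts at these folds, in both directions, with levels and spread taken from vehicle animals. In the data 4792 transcripts were called, so these rates may not carry over, and the choice of scaling was not simulated. Identifiers were printed for the lowest 9 h ratio, the highest vehicle level, and the 2 largest called gains between the low dose times with no overlap by TPM. Dose and duration labels gave the groups, and replicates are separate animals according to the series design.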

Additional observations from a re-analysis of the deposited data

Results flagged for a closer look

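An animal far from the others of its group was looked for in 5 measures across the 6 groups of 5 animals. Of these 30 sets of values, which share the same animals, 2 held one, and chance gives about 1 in 20. For ENSCPOT00000007612.3 the highest low dose animal at 33 h measured 7.47 TPM, with the other 4 at 0 to 1.52 TPM. For ENSCPOT00000011603.3 the lowest vehicle animal at 33 h measured 16.0 TPM, with the other 4 at 23.1 to 25.7 TPM.

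By TPM, low dose animals lay on opposite sides of the vehicle mean at the different times for 3 measures, a difference that was not tested. For the sum over the 130 transcripts, all 5 low dose animals were below the vehicle mean at 9 h and all 5 above it at 33 h, effects of -918 and 522 TPM, which are 1440 TPM apart. For ENSCPOT00000013108.3 the effects were -35.5 and 45.3 TPM, 80.8 TPM apart, and for ENSCPOT00000011603.3 -13.2 and 7.37 TPM, 20.5 TPM apart. The log2 difference of ENSCPOT00000013108.3 from vehicle at the low dose, 33 h, was 0.72 with TMM and 1.03 with library totals (edgeR adjusted p = 0.174 and 0.0254). Without low dose animal 3 of 33 h, its highest, it was 0.33 with TMM (edgeR adjusted p = 0.560). On the TMM scale the low dose effect at 33 h on ENSCPOT00000011603.3 was 0.03 on the log2 scale, and the sum over the 130 transcripts was 4094 CPM in low dose and 4459 CPM in vehicle livers, so the sum did not change sides there.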

How the results depend on the processing

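With library totals the median difference at 33 h between low dose and vehicle turned from -0.20 to 0.11, with 18 of the transcripts called higher, 1 lower and 7434 of all tested called. Between the low dose times it moved from 0.31 to 0.44 with 0 called lower, and between low dose and vehicle at 9 h from -0.59 to -0.45. Scalings shift all transcripts together, as the medians of all tested show. The rule took 38 transcripts with a 9 h limit of 0.5, and 73 with TMM-scaled CPM, which changes the scaling and drops the length correction together. With limma voom, 2 were called higher at the low dose, 33 h, and the differences without a call of ENSCPOT00000025972.2 between the low dose times (-0.014) and of ENSCPOT00000011603.3 against vehicle at 33 h (-0.0089) changed sign. At the low dose, 33 h, ENSCPOT00000025972.2 was called lower than vehicle with DESeq2 (adjusted p = 0.0487) and limma voom (adjusted p = 0.027). It was also called without low dose animal 1 or 3 of 33 h (edgeR adjusted p = 0.0311 and 0.0414), and not in the other alternatives.

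Leaving out 1 animal at a time, the transcripts called lower between the low dose times numbered 1 to 2, and those called higher against vehicle at 33 h 0 to 1. The median against vehicle at 9 h was -0.60 to -0.56, the difference of ENSCPOT00000025972.2 between the low dose times -0.0303 to 0.139, and that of ENSCPOT00000011603.3 against vehicle at 33 h -0.0818 to 0.0805. The cause of these changes was not tested. Among the counts and medians under all alternatives, 15 values moved and 1 reversed. The other 216 were classed as unchanged, by a wide margin. That class holds 51 rises between the low dose times becoming 38 or 69. It also holds 98 called lower at the low dose, 9 h, becoming 73. Transcripts kept without any single animal were an alternative chosen after seeing the data. No animal stands in more than 1 group, so there were no pairs to analyse. The labels give no replicate numbers, and the animal numbers used here follow the order of the samples.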
